A study of Mus musculus with 6 samples.

Results

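The subject is the transcriptome of the hippocampus of untreated male DBA/2 mice, an inbred strain. It was read from 2 of the 6 arrays of a series on venlafaxine, an antidepressant that blocks reuptake of serotonin and noradrenaline. Both arrays, control 1 and control 2, carry RNA of the group at 0 mg/kg/day, whose 10 mice were housed singly and drank water with no drug for 30 days. The remaining arrays belong to the dosed groups (30 and 100 mg/kg/day) and appear below where the same kind of gap was read from them. Control 1 is a pool of right hippocampi and control 2 a pool of left hippocampi. Whether the pools came from separate mice is not stated in the labels, nor is the age of the mice.

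The question is which transcripts this tissue holds and at what signal. Each gene was represented by the probe set, of those with a single gene symbol, that had the highest mean on the 2 arrays, which gave 18193 genes. All values are the deposited log2 signals, given as control 1 then control 2, and a difference of 1 is a 2-fold change in signal. The spread is the gap, control 1 minus control 2. With 2 arrays of 1 group there is no test, and precision is limited by that number. Probe sets differ in how well they hybridize, so a rank is a rank of probe set signal, not of transcript copies, and it is not per transcript length. In pooled tissue a lower signal can come from fewer cells of a type or from less RNA per cell, and these cannot be told apart.

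The hippocampus is a folded sheet of cortex in which granule cells of the dentate gyrus, and pyramidal cells of the fields CA3, CA2 and CA1, are linked in a chain of glutamate synapses. GABA-releasing interneurons hold that chain in check and are sorted into classes by the neuropeptides and calcium-binding proteins they make. Astrocytes clear glutamate, oligodendrocytes make myelin, microglia are the resident immune cells, and the choroid plexus, an epithelium that makes cerebrospinal fluid, lies against the tissue in the ventricle.

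Background was set with genes of smell, pheromone and bitter taste receptors, which brain tissue was taken not to use: 73 such genes had a probe set, with medians of 6.83 and 6.88. A gene was called above background when it exceeded the 95th percentile of these genes on both arrays, which lay at 7.59 and 7.62. By this rule 12108 of 18193 genes (66.6%) were above background. The rule is coarse near the bound: 440 genes were within 0.1 above it and 473 within 0.1 below it. Of 58 genes typical of liver, muscle, skin, gut and gonads, 11 (19.0%) were above it, among them Lct (9.98 and 9.50), which is also on the dentate list here, Krt10 (9.70 and 9.46) and Acta1 (9.18 and 8.94). A stricter bound set on those 58 genes instead, at 8.80 and 8.65, left 8344 genes.

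The arrays differed in ways that touch every gap below. Their RNA integrity numbers were 8.7 and 7.9, and control 2 was hybridized on a later date. The signal of the 3' actin probe set exceeded that of the 5' one by 1.19 and 1.50, and for Gapdh by 0.22 and 0.35. Spike-in transcripts added in hybridization gave higher signals on control 2, with cre medians of 14.41 and 14.72. Side, date and RNA integrity differ together between these 2 arrays and cannot be told apart. The male label is met by the Y-linked genes Eif2s3y (10.91 and 10.74), Kdm5d (8.80 and 8.43) and Uty (8.39 and 8.26), while Xist, the RNA that coats the inactive X chromosome, was just above the bound at 7.64 and 7.73.

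The most abundant signals came from energy supply, protein synthesis, the cytoskeleton, myelin, synapses and 1 secreted carrier protein. Rank 1 on both arrays was Ttr, the carrier of thyroid hormone and retinol made by the choroid plexus, at 14.92 and 15.09. All 4 Ttr probe sets were high, with a lowest mean of 14.44. Rank 2 was Cox6a1, a subunit of cytochrome c oxidase, at 14.49 and 14.83. Ndrg4 followed at 14.48 and 14.81, then Mbp, the myelin basic protein, at 14.60 and 14.67, and Gpm6a, a membrane glycoprotein of neurons, at 14.53 and 14.67. Fth1, the iron-storing ferritin heavy chain, had 14.51 and 14.67, and Cpe, the carboxypeptidase that trims neuropeptide precursors, had 14.51 and 14.58. For each of these 7 genes control 2 gave the higher value by the probe set used. All but Fth1 had another probe set that was higher on control 1. Its gap was 0.17 for Ttr and 0.38 for Cpe, whose other probe set had a mean of only 7.89.

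Of the 40 genes with the highest means, 16 were on the lists used here. They comprise 5 cytoskeleton genes (Tmsb4x, Actb, Tuba1a, Tmsb10 and Dynll1), 3 subunits of the respiratory chain (Cox6a1, Cox5b and Uqcrb), 2 translation genes (Eef1a1 and Tpt1) and 2 genes of transmitter release, Snap25 and Syt1. Camk2n1, an inhibitor of the kinase CaMKII, Mbp, Ttr and Cpe complete them. Snap25, part of the complex that fuses vesicles with the membrane, had 14.42 and 14.43, so its gap was among the smallest of the 40. Camk2n1 had 14.18 and 14.57, so its gap was among the widest. Of the 24 genes on no list, 4 encode ribosomal proteins (Rps29, Rpl38, Rpl41 and Rps28). Others of the 24 are tied to neurons or to brain disease: App, the amyloid precursor (14.20 and 14.33), Prnp, the prion protein (14.13 and 14.26), Basp1, a growth cone protein (14.13 and 14.25), and Dpysl2, which guides axon growth (14.04 and 14.14). Norad, a long noncoding RNA, had 14.24 and 14.49, and the mitochondrially encoded ND5 had 14.15 and 14.05.

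**Figure D1:**
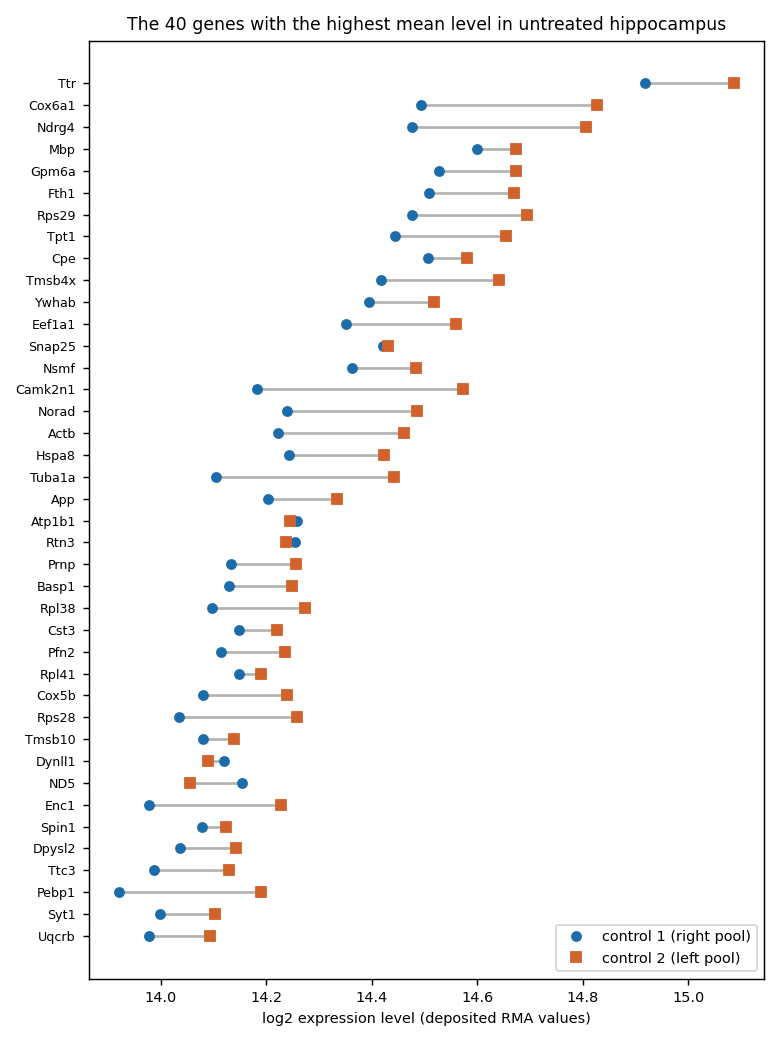
Deposited log2 level (horizontal axis) of the 40 genes with the highest mean on the 2 untreated arrays (vertical axis); circles are control 1 and squares control 2. Control 2 lies to the right for 36 of the 40 genes, and all lie between 13.9 and 15.1.

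The head of the ranking was stable between the arrays, while its exact edge was not. Of the 40 genes, 38 were in the top 40 of control 1 and 39 in that of control 2, 37 of them in both. Ranks 40 and 41 had the same mean to 2 decimals, 14.03, and 36 of the 40 were higher on control 2, with a median gap of -0.14. The choice of probe set mattered more: 33 of the 40 genes had several, and for 8 of them at least 1 was at or below the bound. App ranged over 4 probe sets from 6.56 to 14.27, and Tpt1 over 2 from 6.66 to 14.55. When each gene was given the mean of its probe sets, 16 of the 40 remained among the top 40.

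The fixed groups of basic cell functions sat high as a whole. All 34 subunits of ATP synthase and the respiratory chain were above background and 32 were among the 1000 highest genes, a set that holds 5.5% of all genes. The median level of that list was 13.34, beside 8.54 over all 18193 genes. Of 14 translation genes 12 were among the 1000, of 19 cytoskeleton genes 14, of 54 ribosomal protein genes 32 and of 14 glycolysis enzymes 8. In glycolysis the aldolases led, with Aldoc, the form of astrocytes, at 13.96 and 13.98 and Aldoa at 13.95 and 13.89. Hk2, a hexokinase of muscle and fat, was at 8.21 and 8.29.

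Neuropeptide precursors and the granins that pack them into dense-core vesicles were represented by 41 genes. Of these 32 (78%) were above background, beside 66.6% of all genes. With the stricter bound 19 of the 41 remained, beside 8344 of all 18193 genes. Granins and their relatives filled the upper places: Chgb had 13.48 and 13.52, Scg5, the chaperone of a precursor-cutting enzyme, 13.40 and 13.35, Scg3 12.83 and 12.81, and Scg2 12.23 and 12.12. These 4 genes differed by at most 0.11 between the arrays. Among the peptides proper, Cck, cholecystokinin, had 12.79 and 12.45 and Sst, somatostatin, 11.87 and 11.61. Both mark classes of hippocampal interneuron, and both were higher on control 1.

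Penk, the enkephalin precursor, had 11.31 and 11.68. Npy had 11.14 and 10.96, Vip 10.97 and 10.95, and Tac1, the substance P precursor, 10.81 and 11.05. Penk and Tac1 were higher on control 2, Npy and Vip on control 1. Crh, the corticotropin-releasing hormone that some hippocampal interneurons make, had 8.52 and 8.27, and Oxt, oxytocin, 8.99 and 8.90. Pmch was the member nearest above the bound (7.71 and 7.99) and Hcrt, the orexin precursor, the nearest below (7.55 and 7.58). Trh, Nmu, Calcb, Nppa, Iapp, Ghrh, Ucn and Ucn3 were not above background either.

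The gap was at least 0.5 in 4 members of the peptide list, all higher on control 1. They were Pcsk1n, an inhibitor of a precursor-cutting enzyme (11.49 and 10.83), Vgf, a neurotrophin-induced granin relative (11.30 and 10.76), Igf2 (10.44 and 9.82) and Cartpt (8.82 and 8.16). Over all genes above background 1.34% had such a gap in this direction. All 7 processing enzymes were above background. Cpe stood at rank 9 of all genes, Ctsl, a cathepsin, had 11.81 and 11.75, and Pam, which amidates peptides, had 11.43 and 11.17. Pcsk1, the convertase that makes the first cuts in many precursors, had 8.00 and 7.92 by its single probe set.

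Several of these genes share a promoter sequence. The cAMP response element, bound by CREB and its relatives, reads TGACGTCA and is the same on both strands. In the 250 bases before the first listed start of each gene in RefSeq (GRCm38.p6), it occurred in 5 of the 35 peptide and granin genes with a tabulated promoter (14.3%), namely Sst, Scg2, Chgb, Cartpt and Ucn. Among all 27025 tabulated promoters 1.62% held it, as did 2.75% of the genes above background and 1.26% of those not above. The 120 bases before the start are shown for the 4 of these 5 genes that were above background and for the convertase Pcsk1, 5′ to 3′ on the gene's strand, with the element in capitals.
Sst (chr16:23890845-23890964, minus strand): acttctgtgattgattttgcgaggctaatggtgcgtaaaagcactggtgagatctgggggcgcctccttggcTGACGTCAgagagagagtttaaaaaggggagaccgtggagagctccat
Scg2 (chr1:79440027-79440146, minus strand): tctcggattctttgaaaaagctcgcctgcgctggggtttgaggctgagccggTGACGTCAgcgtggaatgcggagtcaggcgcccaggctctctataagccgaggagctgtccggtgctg
Chgb (chr2:132781522-132781641, plus strand): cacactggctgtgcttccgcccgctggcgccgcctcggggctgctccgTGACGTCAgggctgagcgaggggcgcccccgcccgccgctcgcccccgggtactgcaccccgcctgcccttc
Cartpt (chr13:99900684-99900803, minus strand): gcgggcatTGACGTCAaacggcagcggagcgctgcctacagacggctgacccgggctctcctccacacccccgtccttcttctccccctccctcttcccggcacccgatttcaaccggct
Pcsk1 (chr13:75089737-75089856, plus strand): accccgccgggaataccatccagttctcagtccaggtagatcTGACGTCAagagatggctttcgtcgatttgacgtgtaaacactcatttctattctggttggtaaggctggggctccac

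The element began at position -48 in Sst, -68 in Scg2, -72 in Chgb, -112 in Cartpt and -78 in Pcsk1, counted from the start. Genes that carry it here spanned the range of the list, from Chgb at rank 132 of all genes to Cartpt at rank 9233, and Ucn was not above background. Of the 16 immediate early genes with a tabulated promoter, Btg2 and Dusp1 held it. A match is a run of letters and no measurement of binding. More broadly, promoters of the 25 matched genes of the top 40 had a median of 19 CpG dinucleotides in 250 bases, those of all genes above background 16 and those of genes not above background 4. The GC box letters GGGCGG, searched on both strands, were in 20 of the 25 (80%), against 59.6% above background and 29.4% not above. The TATA box letters TATAAA, on both strands, were in 2 of the 25 (8%), against 6.38% and 14.5%.

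Receptor genes were described for 145 genes, of which 91 (62.8%) were above background, close to the 66.6% of all genes. Channels had 97 of 123 (78.9%) and peptide genes, with growth factors and processing enzymes, 51 of 67 (76.1%), so that 239 of 335 (71.3%) were above background in all. With the bound set on the 58 genes of other tissues this count was 156.

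Receptors for glutamate carry fast excitation in the hippocampus, and all 4 AMPA subunits measured had signals above 10. Gria2, the subunit that makes AMPA receptors impermeable to calcium, had 13.32 and 13.44, Gria1 12.52 and 12.18, Gria3 12.34 and 11.81, and Gria4 10.49 and 10.24. Gria2 was higher on control 2 and the other subunits on control 1, by 0.53 for Gria3. Of the NMDA subunits, which open on coincident activity, 6 genes had a probe set. Grin2b had 11.56 and 11.24, and the others lay below 9. Grin2a, a subunit known in adult hippocampus, was not above background by its single probe set (7.27 and 7.22). All 6 kainate and delta receptor genes were above background, led by Grik3 at 9.87 and 9.39.

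All 6 metabotropic glutamate receptors were above background as well. Grm5, a postsynaptic receptor coupled to calcium release, had 12.31 and 12.04, Grm7, a presynaptic one, 11.12 and 11.05, and Grm3 10.82 and 10.89. Of 13 GABA-A subunits 9 were above background. The beta subunits Gabrb1 (12.63 and 12.57) and Gabrb2 (12.19 and 11.93) had the highest signals of the list. Gabra5, the alpha subunit for which the hippocampus is known, had 11.03 and 10.51, and Gabra2 had 11.68 and 11.13, both with gaps above 0.5. Gabrd, the subunit of tonic inhibition in granule cells, had 9.39 and 9.34, and Gabra6, the cerebellar subunit, was not above background. Gabbr1, of the metabotropic GABA-B receptor, had 12.43 and 12.28. Glrb, the beta subunit of glycine receptors, which also binds the scaffold gephyrin, had 11.91 and 11.13, one of the 12 widest gaps toward control 1. Its other probe set, with a mean of 11.36, had a gap of 0.11, and with both averaged the gap was 0.45.

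Counts of receptors for the modulatory transmitters above background are given by family, beside 66.6% of all genes. They are over genes with a probe set, which were few in several families, so families cannot be ranked by them. Of 15 nicotinic subunits 4 passed, led by Chrna7, the homomeric receptor of hippocampal interneurons, at 10.70 and 10.39. Of 5 listed muscarinic receptors 3 had a probe set and 1 passed, Chrm1 (10.11 and 9.88), the receptor of pyramidal cells. Of 13 serotonin receptors 8 passed, led by Htr2c (11.13 and 11.12), which choroid plexus also makes, followed by Htr1b (9.38 and 9.31), Htr1a (9.04 and 8.79) and Htr4 (9.07 and 8.64). With the stricter bound 3 of the 13 serotonin receptors and 1 of the 15 nicotinic subunits remained.

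Among dopamine receptors Drd1 passed at 9.43 and 9.91, higher on control 2, and Drd2 did not (7.50 and 7.85). Of 9 listed adrenergic receptors 2 had a probe set and 1 passed, Adra2c (8.67 and 8.65). Of 4 histamine receptors 3 passed, led by the autoreceptor Hrh3 (9.08 and 8.98). With the stricter bound 0 adrenergic receptors and 1 histamine receptor remained. Cnr1, the cannabinoid receptor of Cck interneurons, had the highest signal of the 7 adenosine, purine and cannabinoid receptor genes, 12.67 and 12.44. Of 4 opioid receptors 1 passed, Oprl1, the nociceptin receptor, at 9.65 and 9.34, while Oprm1, the mu receptor, gave 7.33 and 7.50 and was not above background.

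Of 33 neuropeptide receptors 17 (with the stricter bound 9) were above background. Ntsr2, a neurotensin receptor of astrocytes, had 11.44 and 11.10, Adcyap1r1, the PACAP receptor, 11.25 and 10.89, and Sstr4, a somatostatin receptor, 11.12 and 10.98. Npy2r, the presynaptic receptor for neuropeptide Y, had 10.08 and 9.47, a gap of 0.62, and Cckbr, the brain cholecystokinin receptor, 9.64 and 9.60. Ligand and receptor were thus both above background for somatostatin, neuropeptide Y and cholecystokinin. Receptors for orexin (Hcrtr1 and Hcrtr2) and galanin (Galr1 and Galr2) were not above background.

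Nuclear receptors of hormones included both corticosteroid receptors, for which the hippocampus is a main site in brain. Nr3c2, the mineralocorticoid receptor, had 11.41 and 11.21, and Nr3c1, the glucocorticoid receptor, 10.86 and 10.72. Thra, a thyroid hormone receptor, had 11.84 and 11.55, whereas Thrb was not above background. All 7 receptors of the neurotrophin, insulin, growth hormone and leptin families passed, led by Ntrk2, the receptor for BDNF, at 12.33 and 12.36. Bdnf itself had 10.38 and 10.16.

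**Figure D2:**
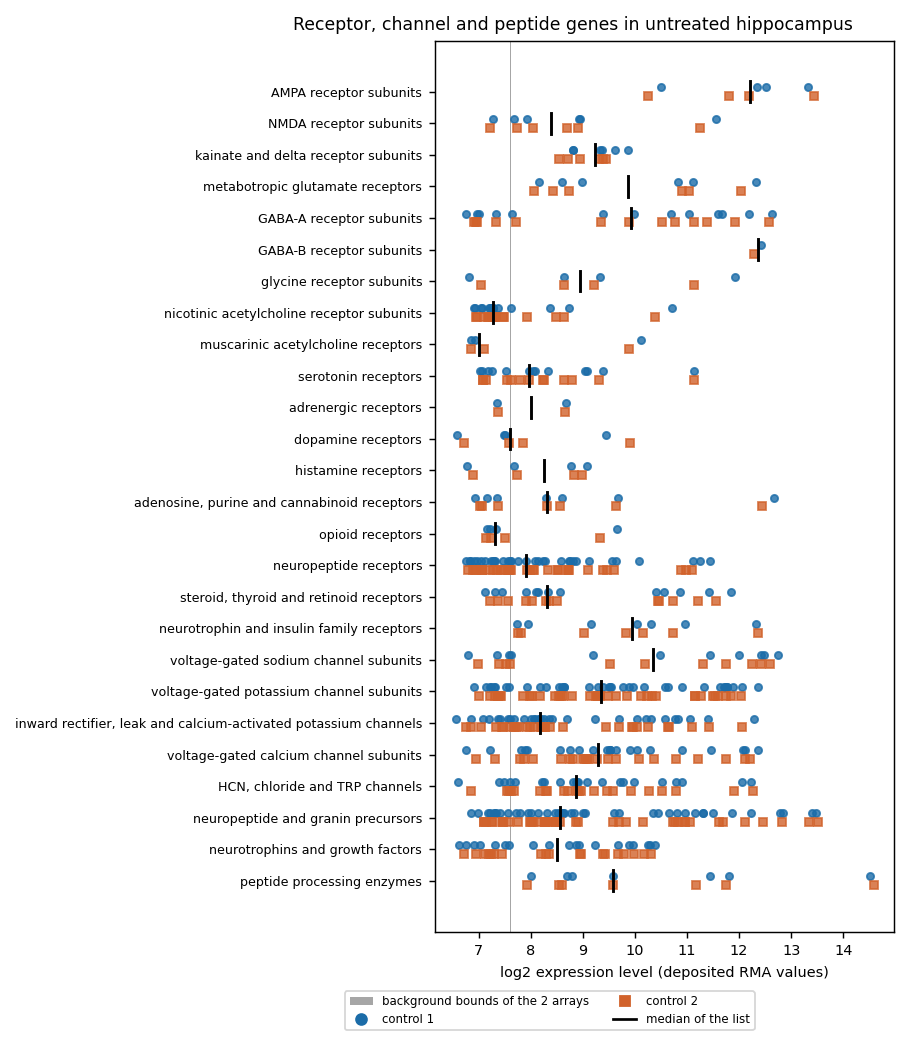
Deposited log2 level (horizontal axis) of every receptor, channel and peptide gene with a probe set, by list (vertical axis); circles are control 1, squares control 2, black bars the median of the list and grey lines the background bounds at 7.59 and 7.62. AMPA subunits lie to the right of 10, while most nicotinic and opioid receptor genes lie at or left of the bounds.

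Sodium channels start action potentials, and 3 of the 11 genes were among the 1000 highest. Of the 11, 7 (63.6%) were above background, beside 66.6% of all genes, and 7 passed the stricter bound. The pore subunits above background were Scn2a (12.75 and 12.59), Scn8a (12.41 and 12.25), Scn1a (11.44 and 11.30) and Scn3a (10.49 and 10.20). The auxiliary subunits were Scn2b (12.48 and 12.42), Scn3b (12.00 and 11.74) and Scn4b (9.18 and 9.52). Scn9a, Scn10a and Scn11a, the channels of sensory neurons, and Scn7a were not above background.

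Voltage-gated potassium channels and their partners, which shape firing, had 29 of 37 genes (78.4%) above background, 22 with the stricter bound. Kcnd2, the A-type channel of pyramidal cell dendrites, had 12.37 and 12.03, Kcna1 of axons 12.05 and 11.84, Kcnq3 of the M-current 11.88 and 11.74, and Kcnc2 of fast-spiking cells 11.73 and 11.50. In this list 27 of the 29 were higher on control 1, with a median gap of 0.19, beside 0.10 over all genes above background. After centring the arrays on their medians 21 of the 29 were higher on control 1. Among inward rectifier, leak and calcium-activated channels 23 of 31 (74.2%) passed, beside 66.6% of all genes, and 11 of 31 passed the stricter bound. Kcnk1, a leak channel, had 12.29 and 12.06, and Kcnj10, the astrocyte channel that takes up potassium, 11.40 and 11.41.

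Voltage-gated calcium channels had 20 of 22 genes (90.9%) above background, 15 with the stricter bound. The auxiliary subunit Cacna2d1 had 12.35 and 12.12, the R-type pore Cacna1e 12.08 and 12.20, and the N-type pore Cacna1b 10.91 and 10.78. The P/Q-type pore Cacna1a had 9.51 and 9.00, so its gap exceeded 0.5. Cacna1s, the channel of skeletal muscle, was not above background. Chloride channels of intracellular membranes led the last list, with Clcn3 at 12.22 and 12.27 and Clcn4 at 12.06 and 11.91. Hcn2, a pacemaker channel, had 9.36 and 9.21, and Trpa1 and Trpv1, channels of pain fibres, were not above background.

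Of 33 genes that make, move or break down transmitters 22 (66.7%) were above background, beside 66.6% of all genes. With the stricter bound 15 remained. Slc1a2, the main glutamate transporter of astrocytes, ranked 43 of all genes at 13.92 and 14.07, and Glul, which makes glutamine from the glutamate taken up, had 13.34 and 13.28. Gad1, which makes GABA, had 13.21 and 12.88, Gad2 11.27 and 11.03, and Slc32a1, which loads GABA into vesicles, 10.50 and 10.57. Slc17a7, the vesicular glutamate transporter of pyramidal cells, gave 8.81 and 8.40 by its single probe set. Transporters and enzymes that mark serotonin, dopamine and acetylcholine neurons (Tph2, Slc6a4, Th, Slc6a3, Chat and Slc5a7) were not above background, with Th at 7.26 and 7.22 and Slc6a4, the serotonin transporter, at 7.14 and 7.41. Slc6a2, the noradrenaline transporter, was just above the bound at 7.77 and 7.81.

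Release and spine proteins were abundant. Of 37 genes of vesicle release 36 were above background and 19 among the 1000 highest. After Snap25 and Syt1 came Cplx1 (13.56 and 13.70), which clamps the fusion complex, and Nsf (13.69 and 13.55), which takes it apart. Cplx2, the other complexin, had 12.07 and 12.57, while Vamp2, the vesicle partner of Snap25, had 12.33 and 11.76, gaps of about 0.5 in opposite directions. Of 30 postsynaptic genes 28 passed, with Camk2a, the kinase of synaptic plasticity, at 13.90 and 13.99 and its inhibitor Camk2n1 at 14.18 and 14.57. Ppp3ca, the catalytic subunit of calcineurin, had 13.80 and 13.84, and Ddn, dendrin, 13.79 and 13.67.

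All 20 immediate early genes, which neurons switch on with activity, were above background in these untreated mice, 14 with the stricter bound. Egr1 had 12.95 and 13.16, Egr3 12.20 and 12.08, Fos 11.06 and 11.21, Arc 10.58 and 10.33 and Npas4 8.60 and 8.65. The list had 13 members higher on control 1 and 7 on control 2, beside 76.9% of all genes above background higher on control 1. After quantile normalization the split was 8 and 12, and after centring 13 and 7. The labels describe decapitation under isoflurane, and how handling bears on these levels was not tested.

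Among markers of the hippocampal fields, 12 of 12 for dentate granule cells, 9 of 9 for CA1 and 13 of 13 for CA3 and CA2 were above background. Over all genes the share was 66.6%. With the stricter bound from other tissues' genes, 7 of 12, 9 of 9 and 10 of 13 remained, beside 8344 of all 18193 genes. Prox1 was not among the 7. Lct was, but it is also 1 of the 58 genes that set this bound. Calb1, calbindin of granule cells, had 12.55 and 12.46, and Prox1, the factor that defines them, 8.47 and 8.31. Ccn3 (11.88 and 11.84), Pou3f1 (11.35 and 10.85) and Wfs1 (10.90 and 10.50) stood for CA1. Pcp4, of CA2, had 12.84 and 13.07, Sv2b 12.84 and 12.75, and Rgs14, which limits plasticity in CA2, 10.84 and 10.67. All 16 pan-neuronal markers passed both bounds, with a median level of 12.49.

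Of 22 interneuron markers 19 passed, beside 66.6% of all genes. Besides the peptides above, Pvalb, parvalbumin of fast-spiking basket cells, had 10.71 and 10.33, and Reln, made by cells of the outer layers, 11.43 and 11.34. Of 17 genes of immature neurons and neurogenesis 13 passed. Stmn1 had 13.87 and 13.93, and Dcx, doublecortin of newborn granule cells, 8.92 and 8.95. The proliferation genes Mki67 (7.28 and 7.48) and Top2a (7.42 and 7.56), and Eomes of intermediate progenitors, were not above background.

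Glial and vessel markers were counted beside 66.6% of all genes above background, and beside 8344 of all 18193 genes with the stricter bound. All 20 astrocyte markers passed, from Slc1a2 and Aldoc down to Sox9 at 8.65 and 8.69. Clu had 13.85 and 13.81, Gja1, connexin 43, 13.49 and 13.44, and Apoe 13.40 and 13.38, while Gfap, the filament of reactive astrocytes, had 9.56 and 9.64. All 14 myelin markers passed, with Cnp at 13.47 and 13.28, Mobp at 13.05 and 13.05 and Cldn11, the tight junction protein of myelin, at 10.78 and 10.19. Of 9 precursor markers 8 passed, among them Pdgfra at 10.63 and 10.52. Of 17 microglia markers 16 passed, 9 with the stricter bound, led by Csf1r (12.06 and 12.18). Their gaps were small for Csf1r and Ctss (11.98 and 11.94) and large for C1qb, a complement subunit (9.80 and 9.10). Vessel markers passed in 15 of 18 cases, 9 with the stricter bound, among them Rgs5 of pericytes (11.81 and 11.90) and Cldn5 of endothelium (10.09 and 10.21).

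**Figure D3:**
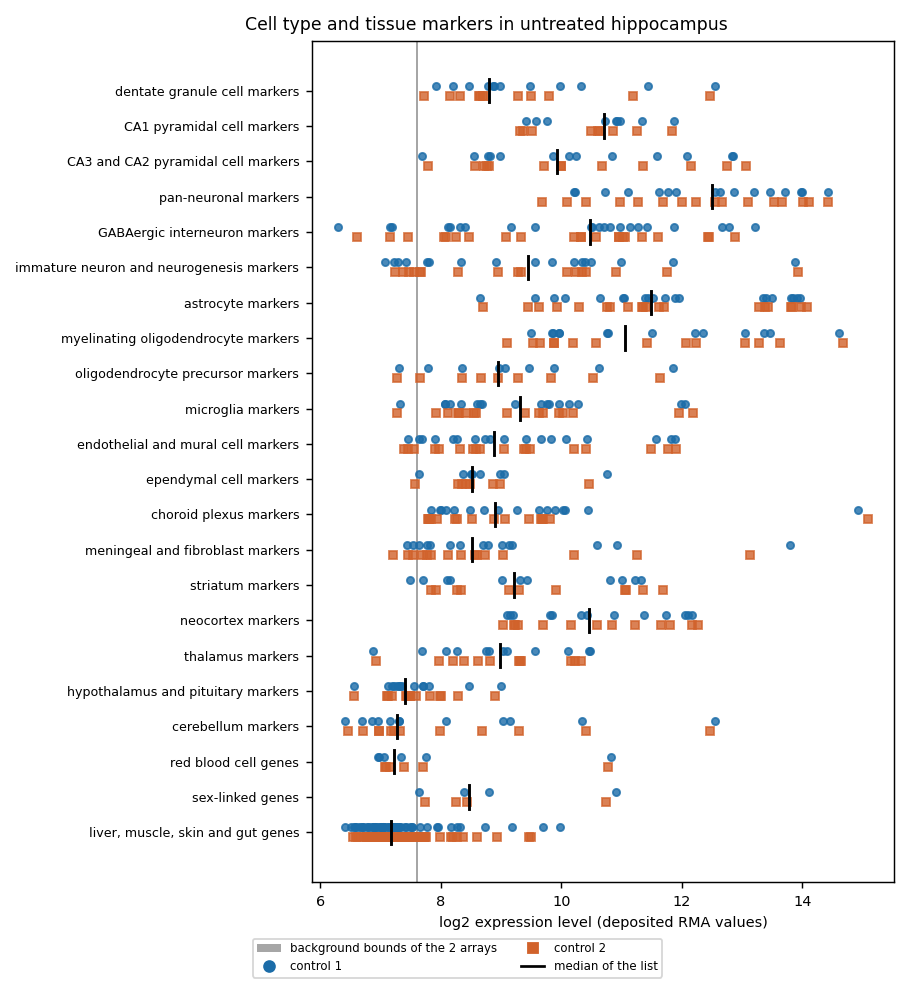
Deposited log2 level (horizontal axis) of every cell type and tissue marker with a probe set, by list (vertical axis); circles are control 1, squares control 2, black bars the median of the list and grey lines the background bounds. Pan-neuronal markers have a median of 12.49, whereas most red blood cell, cerebellum and hypothalamus markers lie near or left of the bounds.

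Markers of tissue next to the hippocampus were measured too. Their counts stand beside 66.6% of all genes above background, and beside 8344 of all 18193 genes with the stricter bound. All 16 choroid plexus markers were above background, from Ttr to Slc4a5 (7.84 and 7.78), among them Igf2, Kcnj13 (10.04 and 9.70) and Kl (9.64 and 9.07), and 8 of the 16 passed the stricter bound. Of 8 ependymal markers 7 passed, 3 with the stricter bound, led by Pltp (10.76 and 10.46). Of 15 meningeal markers 12 passed, 5 with the stricter bound, led by Ptgds, a prostaglandin synthase of the meninges and also of oligodendrocytes, at 13.79 and 13.14. Striatum markers passed in 10 of 11 cases, 7 with the stricter bound, and neocortex markers in 13 of 13 with either. Several of the latter, such as Bcl11b (12.10 and 12.27) and Mef2c (12.17 and 12.16), are also made by hippocampal neurons. Thalamus markers passed in 11 of 12 cases, 7 with the stricter bound, with Gbx2 not above background. Of 14 hypothalamus and pituitary markers 5 passed, none above 9 and 1 with the stricter bound, and of 12 cerebellum markers 5, of which Calb1 and Neurod1 are granule cell genes of the dentate as well. Red blood cell genes passed in 2 of 6 cases, with Hba-a1 at 6.97 and 7.08 and Hbb-b2 at 7.75 and 7.71. How much tissue other than hippocampus the pools held was not tested.

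The gap between the 2 arrays was small for most genes. Over the 12108 genes above background its median size was 0.13 and its 95th percentile 0.39, and over all genes the arrays had a Pearson correlation of 0.996. It was not centred on 0: 9308 genes (76.9%) were higher on control 1, with a median gap of 0.10. Quantile normalization of the 2 arrays brought that share to 51.8% and centring on the median brought it to 53%. The sign depended on the level. The median gap was -0.13 for the genes at 14 or above, 0.00 between 13 and 14, 0.14 between 9 and 12, and -0.09 between 6 and 7.

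**Figure D4:**
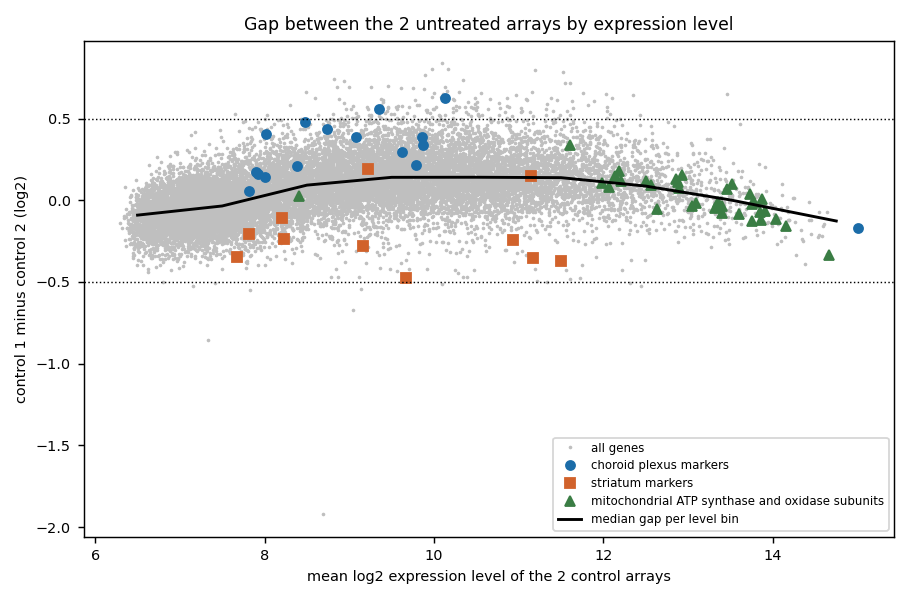
Gap, control 1 minus control 2 in log2 (vertical axis), against the mean deposited log2 level of each gene (horizontal axis). Grey points are all genes, circles choroid plexus markers, squares striatum markers, triangles mitochondrial subunits, the black line the median gap per level bin, and dotted lines gaps of 0.5 and -0.5. The cloud lies above 0 between 9 and 12, where the median gap is 0.14, and below 0 at the highest levels, where it is -0.13.

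A gap of at least 0.5 was seen in 162 genes higher on control 1 (1.34%) and in 6 higher on control 2 (0.0496%). After quantile normalization the counts were 35 and 34, and after centring 57 and 28. The widest gaps toward control 1 were those of Pfn1, profilin of the actin cytoskeleton (10.51 and 9.68), Mlf2 (10.38 and 9.57), Ly6e (10.57 and 9.77), Bsg, basigin of vessels and glia (11.59 and 10.79), and Glrb. Coro1a, an actin-binding protein of leukocytes (10.71 and 9.98), and C1qb were also among the 12 widest. Pfn1, Mlf2 and Bsg have 1 probe set each. The widest toward control 2 was A330076H08Rik (7.73 and 9.65), whose other probe set had a gap of 0.13. It was followed by Rpl27a, a ribosomal protein (8.70 and 9.38), Inhba, an activin subunit (8.87 and 9.41), and Vti1b, a vesicle fusion protein (12.19 and 12.71).

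The probe sets of 1 gene did not always share a gap. Epha4, an ephrin receptor with 5 probe sets, had gaps from -0.36 to 0.72, Cplx2 with 3 from -0.51 to 0.47, and Srrm2, a splicing cofactor with 3, from -0.48 to 0.27. With the mean of the probe sets the gap of Epha4 became -0.04, that of Cplx2 0.12 and that of Srrm2 0.02. The gap named for each of these genes is that of the probe set with the highest signal.

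The same subtraction was made within the other dose groups, which share no array with the controls. High dose 1 and 2 were hybridized on the same dates as control 1 and 2 but with the sides exchanged, and had RNA integrity numbers of 8.5 and 8.2. Low dose 1 and 2 are right and left as the controls are, but of 1 date, with 9.1 and 8.9. Of the 168 genes with a control gap of at least 0.5, 159 (94.6%) had the same sign between the high dose arrays and 16 passed 0.5 there as well, while 53 (31.5%) had the same sign between the low dose arrays and 0 passed. Over all 12108 genes the sign was shared with the high dose pair in 61.3% and with the low dose pair in 28.7%, and 51.3% and 17.4% of genes were higher on array 1 of those pairs. The genes at least 0.5 higher on control 1 had a median gap of 0.28 between the high dose arrays, beside 0.0035 over all genes, and of -0.04 between the low dose arrays, beside -0.09. Over 12108 genes, which are not independent, the control gap had a correlation of 0.531 with the high dose gap and of 0.0392 with the low dose gap. For Mlf2 the gap was 0.81 in the controls, 0.75 at the high dose and 0.08 at the low dose. Cplx2 had -0.51, -1.19 and -0.17, and Srrm2 -0.48, -1.13 and -0.0020. What part date, side and RNA integrity had was not tested.

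**Figure D5:**
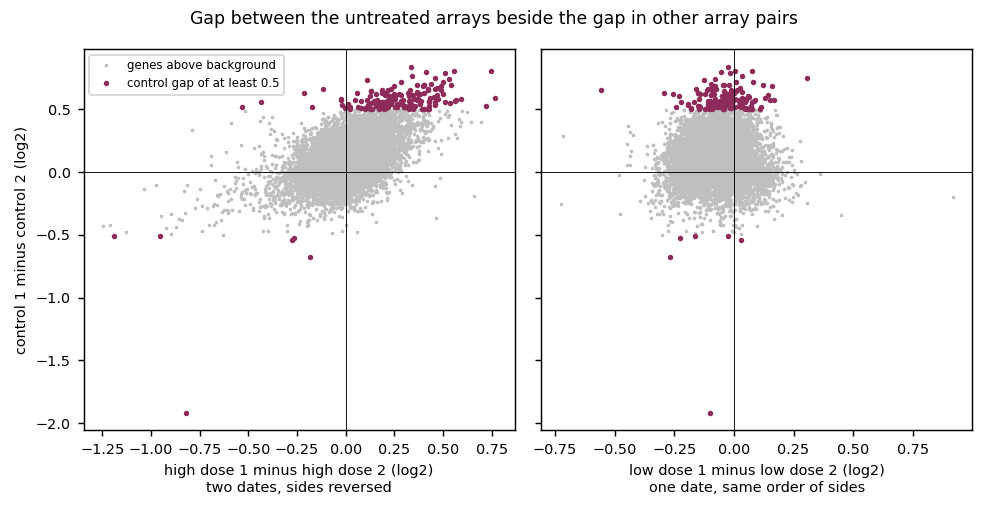
Gap between the control arrays (vertical axis, log2) against the gap between the high dose arrays (left) and between the low dose arrays (right; horizontal axes, log2), 1 grey point per gene above background, dark points with a control gap of at least 0.5. The points slope upward in the high dose plot (correlation 0.531) and show no slope in the low dose plot (0.0392).

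The gaps of several lists lay away from the median of 0.10. Choroid plexus markers had a median of 0.32, with 15 of 16 higher on control 1. Ttr was the exception by the probe set used, while the gaps of its 4 probe sets ran from -0.23 to 0.17. After quantile normalization 16 of 16 were higher on control 1, and after centring 14 of 16. Read as right minus left, the same list had a median of 0.32 in the controls, 0.42 at the high dose and -0.18 at the low dose, so the right pool was not higher in every pair. Meningeal markers had 0.25, -0.09 and -0.26 in that order, beside medians over all genes of 0.10, -0.0035 and -0.09. Dentate granule cell markers had a gap of 0.22, with 12 of 12 higher on control 1, and 10 and 9 of 12 after quantile normalization and centring. As right minus left it was 0.06 at the high dose and -0.09 at the low dose. CA1 markers had a gap of 0.22, with 8 of 9 higher on control 1 and 5 and 6 of 9 after the rescalings. AMPA subunits had 0.29, with 3 of 4 higher on control 1 under each scale. Over all genes above background 76.9% were higher on control 1, and 51.8% and 53% after quantile normalization and centring. As right minus left, CA1 markers had -0.01 at the high dose and -0.01 at the low dose, and AMPA subunits 0.01 and -0.11.

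Striatum markers went the other way. Their median gap was -0.24, with 8 of 10 higher on control 2 as deposited and after both rescalings. As right minus left it was -0.24 in the controls, -0.17 at the high dose and -0.19 at the low dose, and 5 of the 10 genes were lower in the right pool of every pair, where 496 of all 12108 genes were. Penk, the enkephalin precursor, had gaps of -0.37 in the controls and -0.17 at the low dose, right minus left, and high dose 1, the left pool, was higher by 0.46 than high dose 2, the right pool. Isl1, a factor of developing striatum, was the reverse at the low dose, with 0.21. The markers were few and the share of neighbouring tissue in each pool was not tested.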

How the data were processed

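Hippocampal RNA of male DBA/2 mice was measured on Affymetrix mouse genome arrays from 100 ng of RNA per pool. The deposited log2 values of 45101 probe sets were made by the authors with RMA in R 3.0.1, per the submitters' processing notes; RMA subtracts background, normalizes arrays and summarises probes. The scale was read from the values, and the settings of RMA are not stated there. The 2 control arrays had medians of 7.79 and 7.80 and maxima of 14.92 and 15.28, so they are centred but differ in spread. No 2 arrays held identical values.

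Probe sets were named by the platform annotation, with 34741 symbols updated by Entrez identifier from RefSeq (GRCm38.p6). After 64 control probe sets, 34945 had 1 symbol, 932 several and 9160 none; the last 2 kinds were not named. Of 18193 genes, 9010 had several probe sets. Of 923 listed symbols 819 had a probe set, 15 through an older symbol; the rest were not analysed here. In genes above background with several probe sets, the highest and lowest probe set differed by a median of 1.88. In 4128 of these 7525 genes at least 1 probe set lay below the bound. Such differences limit any reading of level.

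The members and lists were chosen with earlier results of these data known. Named genes are the 40 highest; in each list up to 6 of the highest, those nearest the bound on each side and those with a gap of at least 0.5; 12 genes with the widest gap each way; and sex-linked genes. Further members were named as above or not above background, some with values chosen after they were seen. No test was made. Python 3.11.15 and pandas 2.3.3 were used. The background call and the count of gaps toward control 1 were tested on simulated data, with planted gaps wider than 0.5. The choice of probe set was not tested in this way. Alternatives changed the probe set rule, scale, bound, filter, gap and replicates.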

Additional observations from a re-analysis of the deposited data

How the results depend on the processing

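No paired analysis was possible because the values come from 1 group of 2 arrays, with no test between groups. With probe sets averaged per gene, 16 of the 40 most abundant genes were kept and the gap counts were 70 higher on control 1 and 2 higher on control 2; the gap of Epha4 became -0.0406, of Cplx2 0.1196 and of Srrm2 0.0188. Quantile normalization gave 35 and 34 and centring 57 and 28, beside 162 and 6 as deposited. The bound from other tissues' genes left 156 receptor, channel and peptide genes of 239. Without the background filter 11 genes had the gap toward control 2, and a gap of at least 1 left 0 and 1. Without 1 replicate, 12330 to 12339 genes were above background, 244 to 245 of them receptor, channel and peptide genes, and 38 to 39 of the 40 genes stayed. The 90th and 99th percentile bounds gave 13344 and 10180 genes. The bound from other tissues' genes moved the count toward control 2 from 6 to 4 and left 8 of 16 choroid plexus, 5 of 15 meningeal, 3 of 8 ependymal, 9 of 17 microglia, 9 of 18 vessel and 7 of 12 dentate markers. Of all 18193 genes that bound left 8344. Low signals near the bound and disagreement between probe sets limit all levels.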

Other observations

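Signals without a single gene name were not ranked with the genes. Of 9160 probe sets with no symbol, 3013 (32.9%) were above background, and of 932 with several symbols 534 (57.3%). The highest without a symbol had 14.84 and 15.28, the maximum of control 2, and the next had 14.71 and 15.02. Their genes are not named in the annotation used here, and both values are of the size of the genes at the head of the ranking.

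The control probe sets for ribosomal RNA differed between the arrays. The 18S signal was 11.85 and 12.73 for the middle probe set and 12.76 and 13.60 for the 5' one, whereas the 3' one had 13.26 and 13.28. Among the spike-ins, bioB had medians of 7.65 and 7.85, bioC 10.96 and 11.26 and bioD 12.91 and 13.07, each higher on control 2, while the tryptophan negative controls had 6.67 and 6.66.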
